A study of Mus musculus with 6 samples.

Results

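Erythropoietin and the genes of HIF oxygen sensing were examined in kidneys of iron-deficient mouse pups. The 10 genes were chosen by name from the 24422 genes counted, with earlier results of these data known. They were the hormone gene Epo, the HIF alpha subunits Hif1a, Epas1 (HIF-2 alpha) and Hif3a and the beta subunit Arnt. The others were the prolyl hydroxylases Egln1, Egln2 and Egln3, the asparaginyl hydroxylase Hif1an (FIH) and the ubiquitin ligase subunit Vhl. Whole kidneys of C57BL/6 mice, wild type in both groups, were taken at postnatal day 15. The FeD group comprised 3 pups of dams kept on a synthetic iron-deficient diet (2 to 6 ppm iron), and the control group 3 pups whose dams ate iron-sufficient chow (220 ppm iron). The dams were 8 weeks old when the diets began and stayed on them through breeding, pregnancy and nursing. The sources used here do not give the litters or the sexes of these pups, so diet and litter cannot be told apart. The paper reports that most of the litter was lost by birth on the iron-deficient diet, so the FeD pups were survivors.

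HIF is a transcription factor made of an oxygen-regulated alpha subunit and a stable beta subunit. The EGLN (PHD) enzymes attach hydroxyl groups to the alpha subunit, using oxygen, 2-oxoglutarate and ferrous iron, and VHL then marks the hydroxylated subunit for degradation. FIH, another iron-dependent enzyme, blocks the binding of coactivators. Because these steps act on protein, transcript levels do not report how much HIF protein a kidney holds. In the kidney, HIF-2 drives Epo in interstitial cells between the tubules, and the hormone then sustains red cell production in the marrow. Egln3 and, in many tissues, Egln1 and Hif3a are themselves induced by HIF.

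RNA-seq libraries held 13732173 to 20853293 counts on genes, and 15145 genes with enough counts were tested. Levels are given as normalised counts, which are raw counts scaled to the mean library by edgeR's TMM method, or as RPKM, which divides them by exon length so that genes can be compared. The detection floor was set at 3 counts, which is 2.59 to 3.9 normalised counts depending on the library. P values come from the quasi-likelihood test of edgeR, with the Benjamini-Hochberg adjustment across the whole table, and are written *P*adj. They rest on the spread between 3 kidneys a group, moderated by that of all tested genes. The litters are not given, so the kidneys may not be independent.

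At an adjusted P under 0.05 (edgeR), 5 of the 10 genes were higher in FeD kidneys, Epo, Hif3a, Arnt, Egln3 and Hif1an, and 2 were lower, Hif1a and Epas1. Among all tested genes 22.4% were higher and 23.3% were lower. Egln1, Egln2 and Vhl did not pass. A change of at least 2-fold was reached upward by Epo, Hif3a and Egln3, against 4.34% of tested genes, and downward by 0 of the 10, against 5.69%. In 5 genes every FeD kidney lay above every control kidney (28.4% of tested genes), and in 2 every FeD kidney lay below (29.7%). Epo had fewer than 10 raw counts in every control kidney and entered the test only through the FeD kidneys, so its place in these counts is a description; without it 4 genes were higher and 2 were up 2-fold. Whole kidneys were sequenced, so fewer cells of a type and less RNA per cell cannot be told apart.

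**Figure D1:**
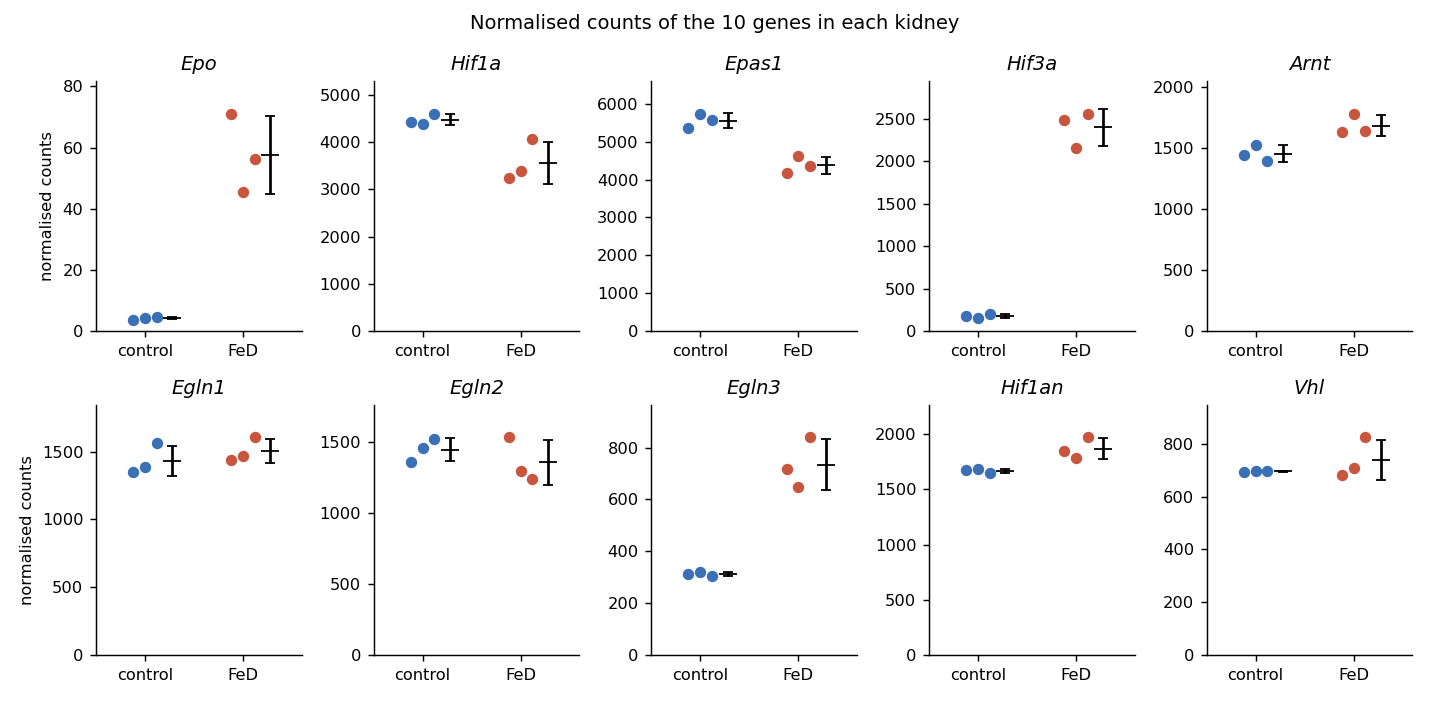
Normalised counts (y axis, from 0) of the 10 genes in 3 control and 3 FeD kidneys; points are kidneys in the order 1 to 3, and the bar beside them gives the mean and SD. The groups stand far apart in Epo, Hif3a and Egln3 and overlap in Egln1, Egln2 and Vhl.

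The 3 genes that rose at least 2-fold are shown by their promoters (250 bases before to 50 bases after a RefSeq start site, from the GRCm38.p6 table, each placed at 1 exact position in mm9), and Epo also by the stretch past its end, since HIF acts on Epo from flanking enhancers. Capitals mark the core of a HIF-binding element, ACGTG or GCGTG, read on either strand, so that CACGT and CACGC also count.
Epo promoter, chr5:137926995-137927294, minus strand: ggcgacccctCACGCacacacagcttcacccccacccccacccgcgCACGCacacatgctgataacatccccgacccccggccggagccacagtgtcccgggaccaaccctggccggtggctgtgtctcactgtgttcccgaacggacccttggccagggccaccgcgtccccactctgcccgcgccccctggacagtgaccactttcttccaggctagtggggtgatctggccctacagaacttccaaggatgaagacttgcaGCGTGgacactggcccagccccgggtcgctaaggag
Hif3a promoter, chr7:17647727-17648026, minus strand: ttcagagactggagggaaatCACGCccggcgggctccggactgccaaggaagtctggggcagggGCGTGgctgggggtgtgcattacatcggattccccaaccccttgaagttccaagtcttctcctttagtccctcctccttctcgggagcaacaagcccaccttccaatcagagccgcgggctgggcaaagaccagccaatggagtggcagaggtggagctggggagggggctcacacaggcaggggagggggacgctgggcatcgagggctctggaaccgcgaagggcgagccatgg
Egln3 promoter, chr12:55304812-55305111, minus strand: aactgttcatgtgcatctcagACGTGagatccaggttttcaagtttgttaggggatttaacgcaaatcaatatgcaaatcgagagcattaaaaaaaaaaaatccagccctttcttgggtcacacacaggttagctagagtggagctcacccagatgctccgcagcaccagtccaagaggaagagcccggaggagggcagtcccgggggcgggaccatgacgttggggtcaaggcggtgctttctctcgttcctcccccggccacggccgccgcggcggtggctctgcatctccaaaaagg
Epo downstream flank, chr5:137923328-137923392, minus strand: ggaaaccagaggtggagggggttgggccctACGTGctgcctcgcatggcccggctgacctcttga
The Epo promoter window held 3 matches, all of GCGTG, the Hif3a window 2 matches of GCGTG and the Egln3 window 1 match of ACGTG. Of 32851 promoter windows of this length, 43.8% held at least 1 match of either form and 8.93% held 3 or more. ACGTG alone occurred in 19.6%. CACGTG, found in the windows of Hif1a and Egln2, reads both as CACGT and as ACGTG. It was counted as 2 matches, also in the 8.93%. Matches were also present in the windows of genes that did not rise 2-fold, with 6 in the first window of Egln2, 3 in that of Hif1a, 2 in that of Egln1 and 1 in that of Arnt, and the windows of Hif1an and Vhl held 0. In the 300 bases past the annotated end, Epo had ACGTG 125 bases downstream, and CACGC 191 bases downstream. Hif1a had GCGTG 261 bases downstream, and the other 8 genes had neither form. Of 7843 protein-coding genes on the same chromosomes, 12.9% had ACGTG there and 25.0% either form. These matches describe letters only, and binding was not measured. For Epo only the promoter window and the 300 bases past its end were examined, and whether they act in the kidney was not tested. Epas1 was not among the promoter windows.

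Epo lies on the minus strand of chromosome 5 (137923487 to 137974470, mm9) and encodes erythropoietin, the hormone that keeps red cell precursors alive. The promoter window shown above belongs to a RefSeq start site 47426 bases inside this annotated span. Epo had 3.8, 4.4 and 4.5 normalised counts in the control kidneys and 71.1, 45.5 and 56.2 in the FeD kidneys. The groups did not overlap, and the control kidneys were just above the detection floor, with raw counts of 4, 4 and 5. Epo rose 13.3-fold (95% interval 8.0 to 22.0), a log2 fold change of 3.73 (SE 0.32, *P*adj = 9.85e-05, edgeR). With no filter on low counts the log2 fold change was 3.72 (*P*adj = 7.8e-05, edgeR), and fits that left out a kidney gave 3.57 to 3.89. Per length, Epo remained the least abundant of the 10 genes, at 0.136±0.0112 RPKM in control and 1.85±0.413 in FeD kidneys (mean±SD, n = 3). An upstream exon of its longest annotated form shares 104 bases, 5.98% of the exon bases of Epo, with Gnb2 on the same strand. Gnb2, a G protein subunit, went from 4708±132 to 4288±144 normalised counts and did not pass (*P*adj = 0.108, edgeR).

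Hif3a, on chromosome 7 (17616856 to 17647776, minus strand), encodes an alpha subunit with several splice forms, some of which restrain the other alpha subunits. It had 179.5, 159.5 and 205.8 normalised counts in control kidneys and 2481, 2154 and 2559 in FeD kidneys. The lowest FeD kidney was far above the highest control kidney. The rise was 13.2-fold, a log2 fold change of 3.72 (95% interval 3.46 to 3.97, SE 0.11, *P*adj = 3.34e-06, edgeR). The fold was close to that of Epo, but Hif3a was counted far more deeply, and its interval was narrower. By P value, Hif3a ranked 2 among the 15145 tested genes, and by size of change 57. Counts per gene do not separate the splice forms of Hif3a.

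The more abundant alpha subunits moved the other way. Epas1 (chromosome 17, 87153247 to 87232750), the alpha subunit that drives Epo, had 5349, 5736 and 5559 normalised counts in control kidneys and 4165, 4618 and 4345 in FeD kidneys. All FeD kidneys were below all control kidneys. Epas1 fell by 0.34 on the log2 scale (SE 0.07, *P*adj = 0.00441, edgeR), to 0.789 of the control level. Hif1a (chromosome 12, 75002362 to 75048517), the alpha subunit best known for glycolytic targets, had 4428, 4395 and 4604 normalised counts in control and 3232, 3386 and 4060 in FeD kidneys. The groups did not overlap, and FeD kidney 3 came closest to the controls. Hif1a fell by 0.33 (SE 0.09, *P*adj = 0.0182, edgeR), but among fits that left out a kidney the call held only without FeD kidney 3 (*P*adj = 0.00044). Leaving out any one of the other 5 gave *P*adj values of 0.052 to 0.072 (edgeR). Gm15283, on the opposite strand, overlaps 5.6% of the exon bases of Hif1a, and the sources used here do not give the strand setting of the counting.

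Per length, the composition of the alpha subunits differed while their sum did not separate the groups. Summed over Epas1, Hif1a and Hif3a, levels were 99.8, 103.0 and 104.0 RPKM in control kidneys and 95.2, 98.7 and 106.0 in FeD kidneys, so the groups overlapped. Hif3a made up 1.5%, 1.28% and 1.65% of that sum in control kidneys and 21.7%, 18.2% and 20.2% in FeD kidneys. This share did not overlap between groups, a difference of 18.5 percentage points (exact permutation test, two-sided, P = 0.1, the smallest that 3 against 3 can give). It was chosen for the text after its values were seen. Epas1 went from 57.1±1.17% to 46.2±2.97% and Hif1a from 41.5±1.01% to 33.7±2.38% of the sum (mean±SD, n = 3). The log2 ratio of Hif1a to Epas1 averaged -0.461±0.0647 in control and -0.455±0.183 in FeD kidneys. The difference of 0.00575 was within the spread (exact permutation test, P = 1.0). Both fell by a like proportion, with overlapping 95% intervals of 0.688 to 0.919 of the control level for Hif1a and 0.708 to 0.879 for Epas1.

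**Figure D2:**
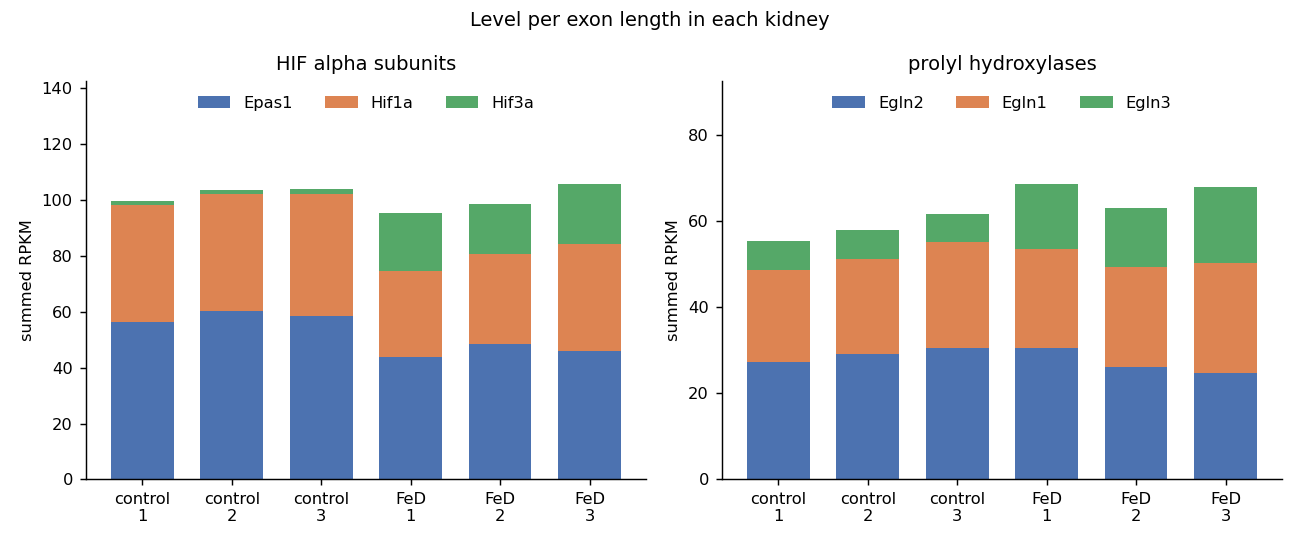
Stacked RPKM (y axis) of the alpha subunits, left, and of the prolyl hydroxylases, right, in each of 3 control and 3 FeD kidneys; colours are genes. Hif3a is a thin band in control kidneys and 18.2% to 21.7% of the bar in FeD kidneys, and Egln3 is 10.4% to 11.9% of the bar in control and 21.6% to 26.0% in FeD kidneys.

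Arnt (chromosome 3, 95238310 to 95301162) encodes the beta subunit, HIF-1 beta, with which each alpha subunit pairs. It had 1445, 1530 and 1392 normalised counts in control and 1629, 1783 and 1644 in FeD kidneys. The FeD kidneys were all higher, by a small margin. Arnt rose 1.16-fold, a log2 fold change of 0.21 (SE 0.06, *P*adj = 0.0285, edgeR). The call was lost when control kidney 1, 2 or 3 or FeD kidney 2 was left out, with *P*adj values of 0.098, 0.05, 0.11 and 0.055 (edgeR). Arnt was less abundant than the alpha subunits in sum, at 10.2±0.488 RPKM in control and 11.8±0.592 in FeD kidneys.

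The prolyl hydroxylases differed among themselves. Egln3 (PHD3; chromosome 12, 55279968 to 55304847, minus strand) had 312.0, 321.3 and 304.7 normalised counts in control and 715.9, 646.2 and 839.3 in FeD kidneys. Every FeD kidney had more than any control kidney. Egln3 rose 2.35-fold (95% interval 1.98 to 2.79), a log2 fold change of 1.23 (SE 0.11, *P*adj = 0.000108, edgeR), and passed in 6 of 6 fits that left out a kidney. Egln1 (PHD2; chromosome 8, 127432496 to 127473154), the enzyme mainly responsible for HIF degradation in most cells, had 1349, 1384 and 1562 normalised counts in control and 1437, 1469 and 1606 in FeD kidneys. These overlapped, and the fold of 1.05 had a 95% interval of 0.929 to 1.19 (*P*adj = 0.478, edgeR). Egln2 (PHD1; chromosome 7, 27943677 to 27951821) had 1361, 1458 and 1524 normalised counts in control and 1534, 1300 and 1238 in FeD kidneys. The highest value of all 6 and the lowest were both FeD kidneys, and the fold of 0.937 had an interval of 0.812 to 1.08 (*P*adj = 0.429, edgeR). The intervals of Egln1 and Egln2 lie below the interval of Egln3. Exons of Egln2 share 11 bases with Cyp2t4 on the opposite strand, a gene at 10.5±2.28 normalised counts in control and 17.3±5.27 in FeD kidneys (*P*adj = 0.156, edgeR).

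Egln3 was the least abundant prolyl hydroxylase per length in both groups. Its share of the summed RPKM of the 3 enzymes was 11.9%, 11.7% and 10.4% in control kidneys and 21.9%, 21.6% and 26.0% in FeD kidneys. The shares did not overlap, a difference of 11.9 percentage points (exact permutation test, two-sided, P = 0.1, the smallest possible here). The sum itself was 58.3±3.26 RPKM in control and 66.5±3.08 in FeD kidneys (mean±SD, n = 3). Set against the summed alpha subunits, the 4 hydroxylases with Hif1an included had a log2 ratio of -0.501±0.0372 in control and -0.279±0.0884 in FeD kidneys. That ratio was higher in each FeD kidney than in any control kidney, by 0.222 on average (exact permutation test, P = 0.1). In all, 4 shares and ratios were compared in this way, none of which could have passed 0.05.

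Hif1an (chromosome 19, 44637340 to 44650764) had 1673, 1682 and 1647 normalised counts in control and 1847, 1783 and 1971 in FeD kidneys. The groups did not overlap, and the log2 fold change of 0.16 (SE 0.06, *P*adj = 0.0495, edgeR) was at the threshold. It was lost under 7 of 12 alternatives, among them DESeq2 (*P*adj = 0.078) and the fits without FeD kidney 1 (0.061) or control kidney 1, 2 or 3 (0.14, 0.13 and 0.15, edgeR). Vhl (chromosome 6, 113573953 to 113581627) had 693.1, 696.8 and 695.8 normalised counts in control and 683.8, 707.3 and 824.6 in FeD kidneys. FeD kidney 3 stood above the rest, FeD kidney 1 below all controls, and the fold of 1.06 had a 95% interval of 0.921 to 1.23 (*P*adj = 0.454, edgeR).

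**Figure D3:**
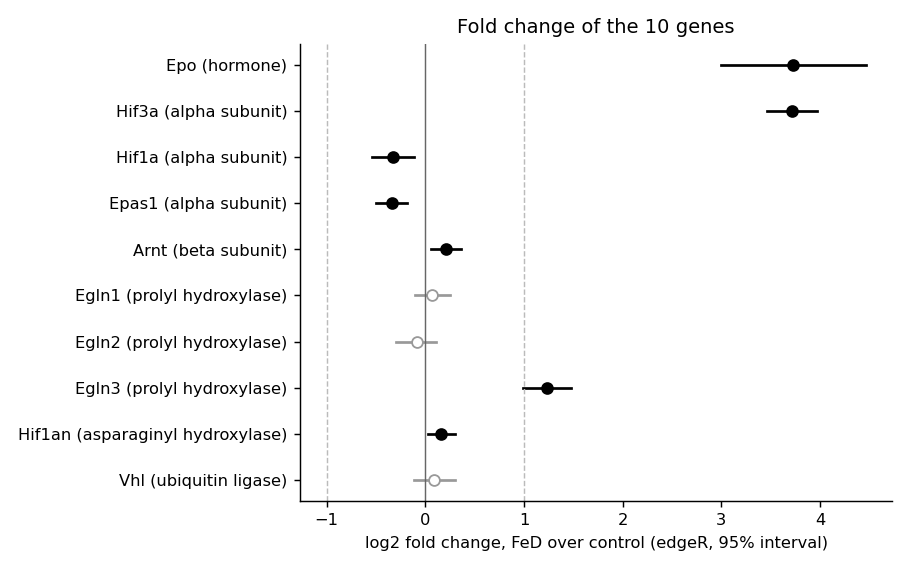
Log2 fold change, FeD over control (x axis), with 95% intervals from edgeR for the 10 genes by role; filled points passed an adjusted P under 0.05, and dashed lines mark 2-fold. Epo and Hif3a sit at 3.73 and 3.72, Egln3 at 1.23, and the other 7 genes between -0.34 and 0.21.

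The order of levels per length was led by Epas1 and Hif1a in both groups, at 58.4±2.04 and 42.5±1.07 RPKM in control and 46.1±2.4 and 33.8±4.18 in FeD kidneys. Egln2 and Egln1 followed, at 28.9±1.64 and 22.8±1.82 RPKM in control kidneys and 27.1±3.12 and 23.9±1.43 in FeD kidneys, where their ranges overlapped. Hif3a, at 1.51±0.193 RPKM, was above Epo alone in control kidneys. In FeD kidneys Hif3a reached 20.7, 17.9 and 21.3 RPKM, above Hif1an (15.8±0.81), Egln3 (15.4±2.05), Vhl (13.8±1.41) and Arnt (11.8±0.592). Of these, Hif1an, Egln3 and Vhl overlapped in range with a neighbour in the order. In control kidneys Hif1an, Vhl, Arnt and Egln3 stood in that order at 14.1±0.151, 13.0±0.0361, 10.2±0.488 and 6.57±0.174 RPKM, with no overlap between neighbours.

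The partners of VHL and the beta subunit were measured as a list of 9 genes, of which 0 were higher, 3 lower and 6 did not pass (edgeR, adjusted P under 0.05), with a median log2 fold change of -0.1 against -0.002 for all tested genes. The lowest P values were those of Ube2m, which charges the ligase with NEDD8 (log2 fold change -0.39, *P*adj = 0.0038, edgeR), and Tceb2, elongin B (-0.34, *P*adj = 0.0103, edgeR). The third was Nedd8 itself, at -0.29 (*P*adj = 0.0103, edgeR), a call lost without control kidney 2 (*P*adj = 0.06). Of all tested genes 22.4% were higher and 23.3% lower, which holds as the background for each list below. Cul2 and Rbx1, the scaffold and RING subunits, had log2 fold changes of 0.0 and 0.03 (*P*adj = 0.984 and 0.759, edgeR).

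Of 15 coactivators and modulators of HIF, 8 were higher, 6 lower and 1 did not pass, with a median log2 fold change of 0.19. Cited4, which competes for the coactivator CBP/p300, rose from 77.8, 66.5 and 73.1 to 190.2, 143.0 and 273.2 normalised counts (log2 fold change 1.49, *P*adj = 0.00158, edgeR) and was the one 2-fold change. The coactivator Crebbp (CBP) had log2 fold change 0.56 (*P*adj = 0.000279, edgeR). Aco1, the cytosolic aconitase that loses its iron-sulfur cluster to become IRP1 and then represses translation of Epas1, fell from 8836, 9387 and 9475 to 5671, 5522 and 5788 normalised counts. Its log2 fold change was -0.71 (*P*adj = 0.000149, edgeR). Ireb2, the other iron regulatory protein, had a log2 fold change of 0.45 (*P*adj = 0.000713, edgeR).

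Transcription factors known to act on the Epo gene were represented by 12 tested genes of 13, with 4 higher, 1 lower and 7 that did not pass and a median log2 fold change of 0.25. Sp3 rose by 0.60 (*P*adj = 0.000593, edgeR) and Smad3 fell by 0.36 (*P*adj = 0.00352, edgeR) on the log2 scale. Hnf4a, which acts with HIF-2 on the liver enhancer of Epo, had 7749, 8376 and 8034 normalised counts in control and 7952, 7216 and 5320 in FeD kidneys (*P*adj = 0.185, edgeR). Gata2, a repressor of Epo, had a log2 fold change of -0.12 (*P*adj = 0.293, edgeR). Of the same family, Gata3 rose by 0.47 on the log2 scale (*P*adj = 0.00633, edgeR), and Gata6, at 0.62, did not pass (*P*adj = 0.132, edgeR). Gata4 was not tested: it had 166.1 normalised counts in control kidney 1 and 0.0 to 5.2 in the other 5 kidneys. Leaving out control kidney 1 changed the calls of Hif1a, Arnt and Hif1an given above and of no other gene among the 10. The same calls were also lost without control kidney 2 and without control kidney 3, so the loss was not particular to control kidney 1.

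Downstream of the hormone, 11 genes of the Epo receptor and its signal were tested, of which 8 were higher (72.7%, against 22.4% of all tested genes), 1 lower (9.09%, against 23.3%) and 2 did not pass, with a median log2 fold change of 0.57. Of these calls Csf2rb, a cytokine receptor subunit, passed in 1 of 6 fits that left out a kidney, namely without FeD kidney 3 (*P*adj 0.0025 to 0.1 over the 6, edgeR). The receptor gene Epor had 184.3, 204.9 and 185.3 normalised counts in control and 390.5, 222.3 and 248.1 in FeD kidneys. All FeD kidneys were higher, FeD kidney 1 most (log2 fold change 0.59, *P*adj = 0.0454, edgeR). The call of Epor was lost without FeD kidney 1 or control kidney 1, 2 or 3; over the fits that left out a kidney the log2 fold change was 0.32 to 0.76 and *P*adj 0.016 to 0.13, and with a replicate block *P*adj was 0.055 (edgeR). Socs2 and Socs3, feedback inhibitors of many cytokine and hormone receptors, rose with log2 fold changes of 1.69 (*P*adj = 0.00152) and 1.09 (*P*adj = 0.00162, both edgeR). The kinase Jak2 had a log2 fold change of 0.90 (*P*adj = 4.84e-05, edgeR) and the transcription factor Stat5a of -0.34 (*P*adj = 0.0193, edgeR), lost without FeD kidney 2 or control kidney 3 (*P*adj at most 0.07). Fam132b, erythroferrone, had a log2 fold change of -0.45 and did not pass (*P*adj = 0.415, edgeR). The receptors of other hormones use the same kinase and inhibitors. Kit and Kitl, the receptor and ligand of stem cell factor, were also among the 8 higher. Their log2 fold changes were 0.33 and 0.57 (*P*adj = 0.00506 and 0.00114, edgeR). The list was drawn up with earlier results of these data known, so its shares are a description.

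Of 59 direct HIF targets outside the 10 genes, 58 were tested. Of these, 27 were higher (46.6%, against 22.4% of all tested genes), 10 were lower (17.2%, against 23.3%) and 21 did not pass. Their median log2 fold change was 0.31. The list was drawn up with earlier results of these data known, so these shares are a description. At least 2-fold higher were 13, namely Cdkn1a, Ankrd37, Lox, Ddit4, Edn1, Eno2, Bnip3, Cp, Slc2a3, Slc16a3, Adm, Hk2 and Cxcr4, and at least 2-fold lower were Apln, Ak4 and Angpt2; over all tested genes 4.34% and 5.69% were. Ddit4, an inhibitor of mTORC1, had 724.8, 695.7 and 812.5 normalised counts in control and 3338, 3254 and 2691 in FeD kidneys (log2 fold change 2.05, *P*adj = 1.02e-05, edgeR). Ankrd37, a HIF target in many cell types, had 48.0, 49.9 and 59.7 in control and 327.4, 292.6 and 225.6 in FeD kidneys (log2 fold change 2.42, *P*adj = 5.92e-05, edgeR). Both were separated without overlap. Bnip3, a mitophagy receptor, and Cp, the ferroxidase ceruloplasmin, had log2 fold changes of 1.55 and 1.52 (*P*adj = 0.000106 and 0.000149, edgeR). The call of Slc2a3 was lost without control kidney 2 or 3 (*P*adj = 0.05 and 0.054, edgeR).

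Other well-known targets were lower or did not pass. Vegfa, the vascular growth factor, had 5556, 5356 and 6007 normalised counts in control and 5762, 4504 and 5291 in FeD kidneys, which overlapped (*P*adj = 0.347, edgeR). Pgk1, a glycolytic enzyme, had a log2 fold change of -0.03 (*P*adj = 0.749, edgeR). Apln, the endothelial peptide apelin, fell from 466.5, 518.5 and 527.4 to 128.2, 126.1 and 204.0 normalised counts (log2 fold change -1.71, *P*adj = 0.000251, edgeR). Tfrc, the transferrin receptor, had a log2 fold change of -0.47 (*P*adj = 0.00211, edgeR). Vegfa, Pgk1 and Tfrc were picked after their values were seen. Eno1 was not tested, with at most 3.0 normalised counts in any kidney. The gene annotation of the counting is not given, so this value may not mean that Eno1 was silent.

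**Figure D4:**
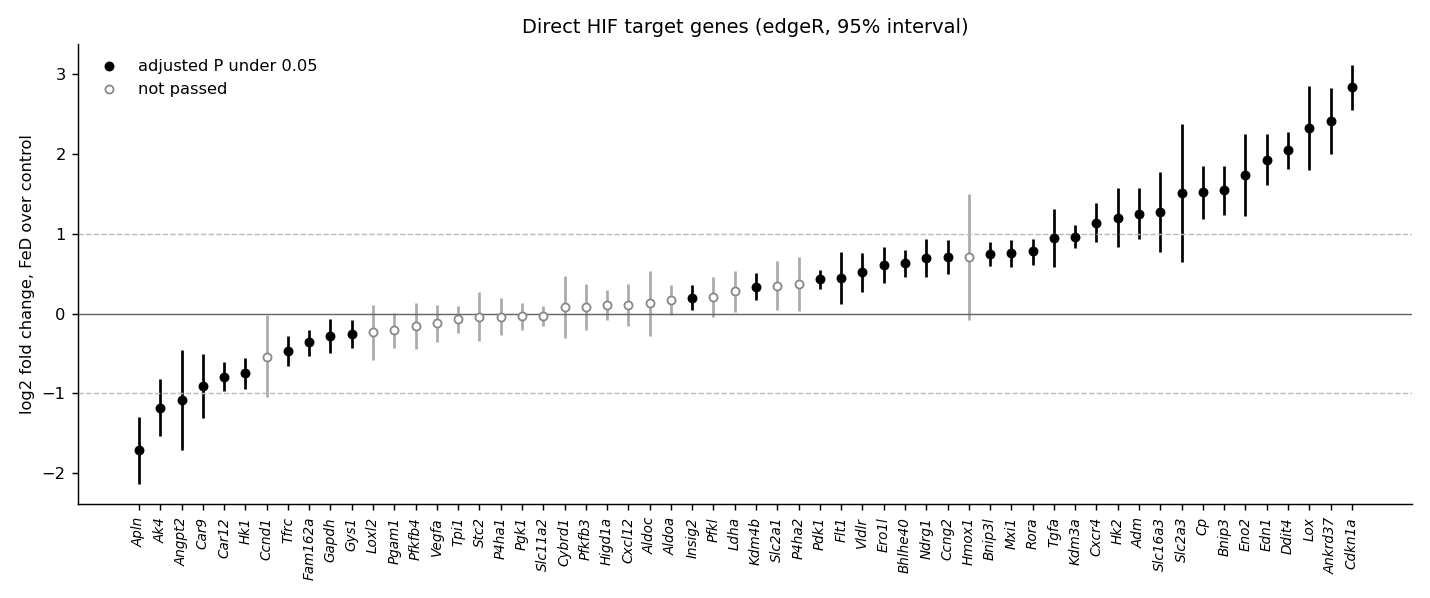
Log2 fold change, FeD over control (y axis), with 95% intervals from edgeR for the 58 tested direct HIF targets, in rising order; filled points passed an adjusted P under 0.05 and dashed lines mark 2-fold. The targets spread from -1.71 for Apln to 2.84 for Cdkn1a, with 13 of them called above the upper dashed line and 3 below the lower one.

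Epo is made by interstitial fibroblasts and pericytes. Of 17 tested markers of these cells, 7 were higher, 5 lower and 5 did not pass, with a median log2 fold change of 0.12. Their summed level ranged from 54798 to 57597 normalised counts in control and from 46852 to 61872 in FeD kidneys, so the groups overlapped. Pdgfrb, a receptor found on Epo-producing cells, had 3126, 3423 and 3612 normalised counts in control and 4700, 4656 and 5958 in FeD kidneys (log2 fold change 0.59, *P*adj = 0.00297, edgeR). The pericyte gene Rgs5 rose most, by 1.73 on the log2 scale (*P*adj = 3.53e-05, edgeR). The matrix genes Lum and Col3a1 fell by 2.31 and 1.05 (*P*adj = 0.000819 and 0.000208, edgeR). Nt5e, another marker of the Epo-producing fibroblasts, had a log2 fold change of 0.12 (*P*adj = 0.453, edgeR). Ren1 was listed at 0 in all 6 kidneys, which may not mean that it was silent, as the gene annotation is not given. No marker in the list had a fold change as high as that of Epo. Their part in the rise of Epo was not tested.

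**Figure D5:**
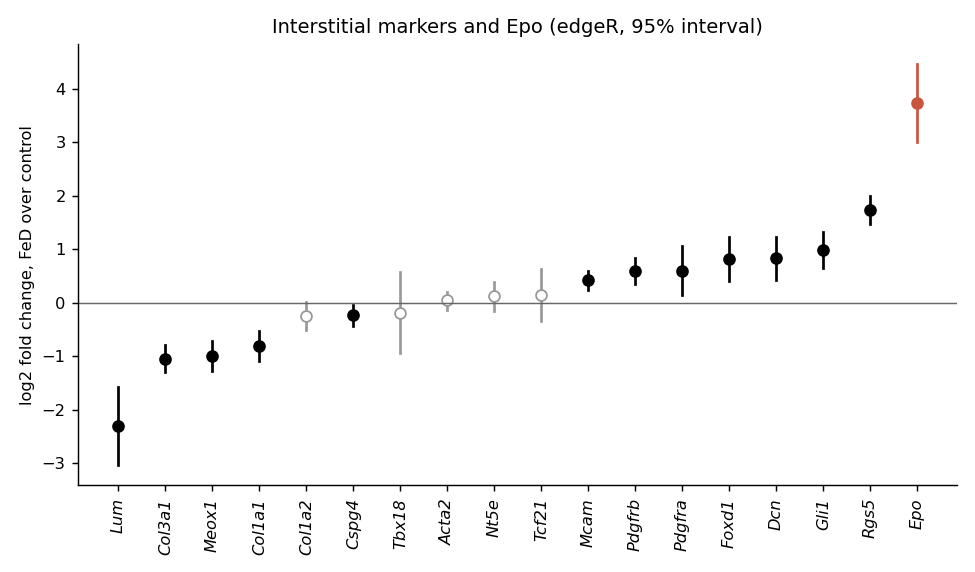
Log2 fold change, FeD over control (y axis), with 95% intervals from edgeR for 17 interstitial markers (filled where the adjusted P was under 0.05) and Epo in red at the right. The markers lie between -2.31 and 1.73, and the interval of Epo, from 3.00 to 4.46, lies above all of them.

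Markers of other cells also differed between the groups. All 12 nephron markers were detected; 1 was higher, 4 were lower and 7 did not pass, with a summed level of 271061 to 290530 normalised counts in control and 173894 to 237706 in FeD kidneys. The 2-fold changes were Aqp2 upward (1.13) and Slc34a1 and Slc12a3 downward (-2.22 and -1.56). Of 7 endothelial markers, 0 were higher and 6 lower, with summed levels of 22451 to 22851 in control and 13637 to 18282 in FeD kidneys; Emcn fell most, with a log2 fold change of -1.04. Epas1 is abundant in endothelium, and the part of these cells in its fall was not tested. Of 7 tested blood and myeloid markers, 2 were higher, 2 lower and 3 did not pass, among them Cd68 (1.12) and Slc4a1 (-1.42), and the summed level was 4257 to 5365 in control and 2465 to 3068 in FeD kidneys. Much of that sum was Slc4a1, which intercalated cells of the kidney also express, at 2454±283 in control and 908±459 in FeD kidneys (mean±SD, n = 3). Hba-a1, Hba-a2, Hbb-b1 and Hbb-b2 were listed at 0 in all kidneys, which may not mean that they were silent, as the gene annotation is not given. Of 5 tested liver markers, Ttr and Serpina1a rose (1.85 and 1.52) and 3 did not pass, with a summed level of 1595 to 1691 normalised counts in control and 4859 to 5510 in FeD kidneys. Much of that sum was Ttr, at 798±133 in control and 2870±420 in FeD kidneys, and Serpina1a, at 804±95.9 and 2307±92.3 (mean±SD, n = 3). Alb had at most 22.1 normalised counts in control and 32.5 in FeD kidneys, which overlapped. Apoa1 had at most 20.2 in control and 30.3 in FeD kidneys, and every FeD kidney was higher. The part of liver tissue in these values was not tested.

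The genes whose levels followed Epo most closely over the 6 kidneys, by Pearson's r of log2(CPM + 1) among 14211 genes, were B830017H08Rik (r = 0.9992), Nlrp10 (0.9987), Tmem243 (0.9984), Klf11 (0.9983) and Ffar4 (0.9982). All of them separated the groups without overlap; Nlrp10, for example, had 3.8, 3.3 and 5.3 normalised counts in control and 60.1, 39.0 and 50.1 in FeD kidneys. For Egln3 they were Rdh11 (0.9995), Slc17a1 (0.9990), Pde10a (0.9988), Peli1 (0.9987) and Col6a2 (0.9986). With 6 kidneys in 2 diet groups such values are common: 950 genes had r over 0.95 with Epo and 1113 with Egln3. The points share libraries and diets, so these values are a description only.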

How the data were processed

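Total RNA of 6 whole kidneys was enriched for polyadenylated RNA and sequenced from TruSeq libraries as reads of 100 bases. Per the submitters' processing notes and the methods, CASAVA 1.8.2, Trimmomatic, TopHat2 2.0.11 (mm9) and HTSeq were used. The deposited values are raw counts of reads per gene symbol, which the authors neither normalised nor pooled; the gene annotation and strand setting are not given in the sources used here. The labels give 1 month of diet before mating, and the methods 3 weeks.

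Counts were fitted with edgeR 4.0.16 in R 4.3.3 (filterByExpr, TMM, glmQLFit and glmQLFTest, 1 term for diet, no block). Library totals ranged from 13732173 to 20853293 and normalisation factors from 0.986 to 1.02; the floor of 3 counts covers counting error only. RPKM used union exon lengths of GENCODE vM1 (NCBIM37), in which 20608 symbols matched a single gene. Ratios were compared by exact permutation tests in SciPy 1.17.1. Alternatives were other size factors, other filters (including at least 10 counts in every sample), DESeq2 1.42.0, a replicate block, other lengths and each kidney left out.

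The genes and lists were chosen with earlier results of these data known. Named were the 10 genes; in each list those past an adjusted P under 0.05 and 2-fold, or the 2 with the smallest P; genes with overlapping exons; and the 5 genes (mean of at least 20 normalised counts) most correlated with Epo and with Egln3. Other genes named within a list were picked after their values were seen. One gene of the list of direct HIF targets is not reported here and was left out of its counts.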

Additional observations from a re-analysis of the deposited data

How the results depend on the processing

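The calls of Epo, Hif3a, Egln3 and Epas1 held in every fit that tested them, by edgeR or DESeq2. A filter of at least 10 counts in every sample removed Epo, which left 2 genes up 2-fold in place of 3. With each kidney left out in turn, 3 to 5 of the 10 genes were higher and 1 to 2 lower at an adjusted P under 0.05 (edgeR), with Arnt, Hif1an and Hif1a changing sides. Of 119 values of the 10 genes under the alternatives, 103 kept their direction and side of the threshold, 16 kept only the direction, and 0 changed sign. The difference in the log2 ratio of Hif1a to Epas1, 0.00575, ranged from -0.0973 to 0.0778 with a kidney left out, and was negative without control kidney 2 (-0.0316) or FeD kidney 3 (-0.0973); the cause was not tested. The shares and ratios of Egln3, Hif3a and the hydroxylases kept their sign under other lengths and without each kidney. Other size factors moved the median log2 fold change of all genes by 0.009 or -0.002.

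Replicate numbers were checked for pairing: deviations of same-numbered kidneys correlated at -0.162, 9.57e-05 and -0.0348, and those of differently numbered kidneys at -0.0924 to 0.168. The deviations were taken from the mean of only 3 kidneys, so this check cannot exclude a shared litter or batch. With the replicate block, 4 of the 10 genes were higher and 2 lower, Hif1an alone being lost (adjusted P = 0.091, edgeR), and 3100 of all genes were higher and 3344 lower, against 3397 and 3527 without it. Depth limits Epo most: 4 to 5 counts in each control kidney leave a 95% interval of 8.0- to 22.0-fold.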
